A study of Mus musculus with 8 samples.

Results

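The genes described here are the 46 proteasome genes of a mouse gene array that have a probe set of their own, out of 19938 genes named by 1 or more such probe sets. They were taken by symbol, as every symbol that starts with Psma, Psmb, Psmc, Psmd, Psme, Psmf or Psmg and a number, without the interferon-inducible core subunits Psmb8, Psmb9 and Psmb10 and the activator subunit Psme1. Where a gene had several probe sets (5 of the 46), the brightest on average over the 8 arrays stood for it, so no difference between groups entered the choice. Of the 46, 42 encode subunits, assembly chaperones, activators or an inhibitor of the proteasome that most cells make. Psma8 and Psmb11 encode core subunits of testis and thymus, and Psmc3ip and Psme3ip1 fit the pattern only because they are named after a partner and encode no proteasome subunit.

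The proteasome is the protease complex that degrades most proteins tagged with ubiquitin. Its barrel-shaped core has outer rings of alpha subunits, which gate the entry, and inner rings of beta subunits, of which Psmb5, Psmb6 and Psmb7 carry the active sites, while a regulatory particle on the barrel's ends binds ubiquitin, removes it, and unfolds and feeds in the substrate. In macrophages exposed to interferon gamma, newly assembled cores take up the alternative subunits Psmb8, Psmb9 and Psmb10 in place of Psmb5, Psmb6 and Psmb7, which changes the peptides made for antigen presentation.

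The study exposed mouse bone marrow-derived macrophages (BMDM), phagocytes grown in culture from bone marrow, to cytokines for 6 h to define their activation states. The groups were IFN gamma/LPS (interferon gamma with lipopolysaccharide, a bacterial membrane component), IL4/IL13 (the interleukins of type 2 immunity), LPS/IL4/IL13 (lipopolysaccharide with both interleukins) and untreated cells, with 2 arrays in each. LPS and IFN gamma were never given alone, and the mouse strain, the doses and the culture conditions are not stated in the labels. Whether both arrays of a group stem from different cultures or mice is not stated either, so each p-value reflects the spread between these arrays, which can be technical, and 2 arrays a group limit the precision.

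Levels below are the deposited log2 signals, on which a difference of 1 is a 2-fold change, and signals of different genes cannot be set against each other. Changes are log2 fold changes ± SE from limma over all 8 arrays (n = 2 in each group), and a gene is said to have risen or fallen when its p, adjusted by Benjamini-Hochberg over all 19938 named genes, was under 0.05. Array medians over all probe sets lay between 6.12 and 6.20. All 9 macrophage markers, among them Adgre1, Csf1r and Cd68, lay above the array's median of the named genes on every array. None of 5 T and NK cell, 3 B cell or 5 neutrophil markers did so on every array. Above that median on some arrays were S100a9 (6 of 8), Cd3e (5), Mpo (4) and S100a8 (1). The collagen genes Col1a1, Col1a2 and Col3a1, 3 of 4 fibroblast markers, lay above it on every array (7.74 to 7.95, 7.28 to 7.51 and 6.63 to 6.95). The part of such other cells in the results was not tested. Among the 46 genes the 2 arrays of a group differed by a median of 0.10 under IFN gamma/LPS, 0.10 under IL4/IL13, 0.165 under LPS/IL4/IL13 and 0.065 in untreated cells, and the widest gap, for Psmd5 under LPS/IL4/IL13, was 0.63.

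The proteasome genes moved in both directions under every treatment. Under IFN gamma/LPS 12 of the 46 rose and 12 fell relative to untreated cells, shares of 26.1% each, against the 23.6% of all named genes that rose and the 28.4% that fell. The median change of the 46 was 0.05, against 0.105 over all named genes. Under IL4/IL13 10 rose (21.7%), against a background of 7.83%, and 3 fell (6.52%), against a background of 12.3%, with a median of -0.03 beside 0.07 over all named genes. Under LPS/IL4/IL13 18 rose (39.1%), against 20.3% of all named genes, and 9 fell (19.6%), against 25.4%, with a median of 0.14 beside 0.09. These 3 comparisons share the untreated arrays, and in RNA of whole cultures a change in the cells present and a change per cell cannot be told apart. Changes of at least 2-fold were seen in 5 genes under IFN gamma/LPS, in 4 under LPS/IL4/IL13 and in none under IL4/IL13. Of all 19938 named genes 3393, 2763 and 488 changed by as much, in the same order.

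The genes are bright on the array: 42 of the 46 had a mean level above the median of the named genes. Among the 9967 named genes above that median, 26.0% rose and 48.9% fell under IFN gamma/LPS, 11.5% rose and 21.8% fell under IL4/IL13, and 25.7% rose and 43.1% fell under LPS/IL4/IL13. The counts under IL4/IL13 depended on single arrays. In place of 10 risers, 5 or 3 were called without the first or the second untreated array and 4 or 5 without the first or the second IL4/IL13 array, of which 5, 3, 2 and 4 were among the 10. Only Psma3 and Psme4 of the 10 kept their call in each fit that left out 1 array. In place of 3 that fell, 1 was called without either untreated array or the first IL4/IL13 array, and 7 without either LPS/IL4/IL13 array.

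Another scaling of the arrays changed some of these calls. With quantile normalization 18 genes rose under IFN gamma/LPS (39.1%, against 22.1% of all named genes scaled so), of which 11 were among the 12 above. With it 12 fell (26.1%, against 25% of all named genes), with Psma8 and Psmb2 newly lower. The 7 called higher only there were Psmc2, Psmc4, Psmc5, Psmd4, Psmd6, Psmd11 and Psmd12, and the calls of Psmd8, Psmd9 and Psmg4 were lost. Under LPS/IL4/IL13 this scaling called 21 higher (45.7%, against 20.1% of all named genes) and 11 lower (23.9%, against 23.2%). Psma7, Psmc2, Psmd4, Psmd6 and Psmd9 were newly higher, Psmb3, Psmb4 and Psmd2 newly lower, and Psma6, Psmg3 and Psmg4 lost. Some changes against untreated cells that were called both as deposited and with this scaling moved by over 1.5 times. These were Psma7 (0.84), Psmb3 (-0.60) and Psmb5 (-0.68) under IFN gamma/LPS. Under LPS/IL4/IL13 they were Psmb2 (-0.57), Psmc5 (0.69), Psmd8 (0.28), Psme3 (0.23) and Psmg2 (-0.36). Under IL4/IL13 quantile normalization called 12 higher (26.1%, against 8.95% of all named genes scaled so) and 3 lower (6.52%, against 10.9%). It kept all 10 risers and added Psma5 (0.32) and Psmb7 (0.46). With each array centred on its median, 6 rose under IL4/IL13 (13%, against 5.72% of all named genes) and 5 fell (10.9%, against 14.3%). The rises of Psma4, Psmc4, Psmd8 and Psmd13 were lost with this centring.

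**Figure D1:**
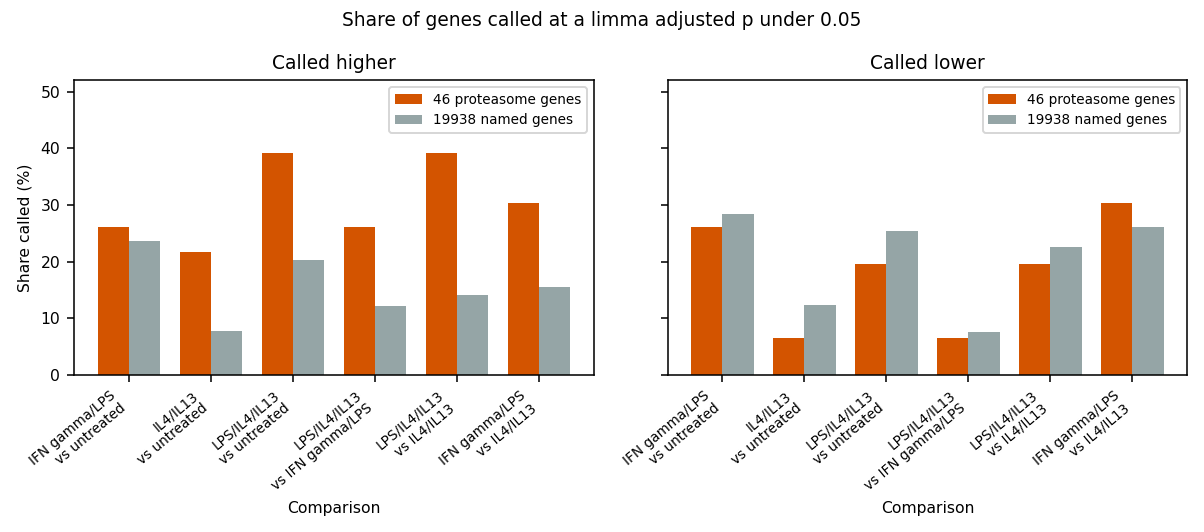
Share of genes called higher (left) and lower (right) in each of the 6 comparisons, in percent, for the 46 proteasome genes (orange) and for all 19938 named genes (grey). The proteasome genes stand at 39.1% higher under LPS/IL4/IL13 against untreated cells, where all named genes stand at 20.3%, and at 26.1% beside 23.6% under IFN gamma/LPS.

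**Figure D2:**
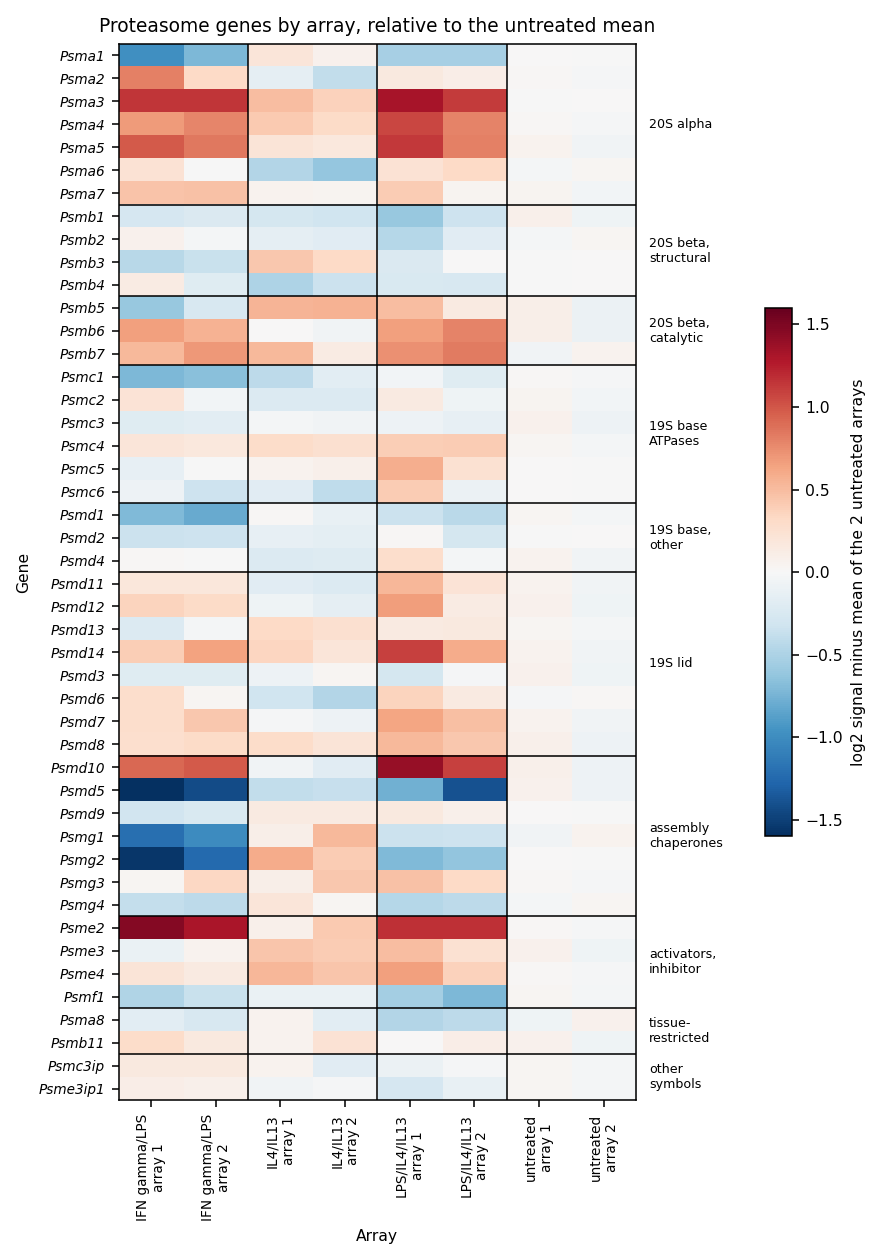
Log2 signal of each of the 46 genes (rows, grouped by role) on each of the 8 arrays (columns), minus the mean of the 2 untreated arrays, with red above and blue below that mean. Psma3, Psma4, Psma5, Psmd10 and Psme2 are red on all 4 arrays with LPS, and Psma1, Psmd5 and Psmg2 are blue on all 4.

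Most genes of the alpha ring rose under IFN gamma/LPS. Of its 7 genes 5 rose and Psma1 fell, where 23.6% of all named genes rose and 28.4% fell. The median change was 0.57, against 0.105 over all named genes. Psma3 had 10.40 on both arrays under IFN gamma/LPS, 9.75 and 9.63 under IL4/IL13 and 10.58 and 10.38 under LPS/IL4/IL13, against 9.25 and 9.27 in untreated cells. Its arrays under each treatment lay above both untreated arrays, and it rose under all 3 treatments. The changes of Psma3 were 1.14 ± 0.09 (adjusted p = 2.48e-07) under IFN gamma/LPS, 0.43 ± 0.09 (adjusted p = 0.00375) under IL4/IL13 and 1.22 ± 0.09 (adjusted p = 1.66e-07) under LPS/IL4/IL13. Its other probe sets changed in the same directions.

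Psma5 had 8.90 and 8.77 under IFN gamma/LPS, 8.13 and 8.09 under IL4/IL13 and 9.05 and 8.73 under LPS/IL4/IL13, against 7.98 and 7.87 in untreated cells. Both groups with LPS lay above the other groups, by 0.91 ± 0.11 (adjusted p = 2.33e-05) and 0.97 ± 0.11 (adjusted p = 1.69e-05) relative to untreated cells. Psma4 rose by 0.73 ± 0.10, 0.37 ± 0.10 and 0.93 ± 0.10 in the order IFN gamma/LPS, IL4/IL13, LPS/IL4/IL13, and the call under IL4/IL13 was lost when any untreated or IL4/IL13 array was left out (highest adjusted p 0.143). Psma2 (0.57 ± 0.14) and Psma7 (0.46 ± 0.12) rose under IFN gamma/LPS, and neither passed under LPS/IL4/IL13 (0.13 ± 0.14 and 0.23 ± 0.12). Without the first IFN gamma/LPS array the rise of Psma2 had an adjusted p of 0.0549, and without the second untreated array that of Psma7 had one of 0.0533. With quantile normalization Psma7 passed under LPS/IL4/IL13 too (0.50, adjusted p = 0.00084).

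Psma1 ran the other way. Its levels were 9.29 and 9.55 under IFN gamma/LPS, 10.46 and 10.34 under IL4/IL13 and 9.73 and 9.74 under LPS/IL4/IL13, against 10.27 and 10.26 in untreated cells. Both groups with LPS lay below the other groups, and the change was -0.85 ± 0.09 (adjusted p = 7.37e-06) under IFN gamma/LPS and -0.53 ± 0.09 (adjusted p = 0.000467) under LPS/IL4/IL13. Psma6 fell under IL4/IL13, where it had 10.14 and 10.00 against 10.59 and 10.64 in untreated cells, a change of -0.55 ± 0.09 (adjusted p = 0.000997) with no overlap of the arrays. Under the LPS groups it was at 10.85 and 10.61 with IFN gamma and 10.85 and 10.94 with the interleukins, and its rise under LPS/IL4/IL13 (0.28 ± 0.09) was lost without either untreated array or without the second LPS/IL4/IL13 array (highest adjusted p 0.139).

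The core's active-site genes split. Psmb6, the caspase-like site, and Psmb7, the trypsin-like site, rose in both groups with LPS, while Psmb5, the chymotrypsin-like site, fell under IFN gamma/LPS and rose under IL4/IL13. Psmb5 had 10.53 and 10.87 under IFN gamma/LPS, 11.67 and 11.69 under IL4/IL13 and 11.62 and 11.27 under LPS/IL4/IL13, against 11.22 and 11.04 in untreated cells. Both IFN gamma/LPS arrays were below, and the arrays with IL4/IL13, with or without LPS, above the untreated ones. Quantile normalization left a change of 0.02 under LPS/IL4/IL13 (limma adjusted p = 0.905), against 0.32 in the values as deposited. With each array centred on its median the change there was 0.335 and passed (limma adjusted p = 0.0444). The change of Psmb5 was -0.43 ± 0.12 (adjusted p = 0.0116) under IFN gamma/LPS, 0.55 ± 0.12 (adjusted p = 0.00773) under IL4/IL13 and 0.32 ± 0.12 (adjusted p = 0.0555, not past the threshold) under LPS/IL4/IL13. These calls lean on single arrays: the fall was -0.34 (adjusted p = 0.116) without the first untreated array and -0.26 (adjusted p = 0.111) without the first IFN gamma/LPS array. The rise under IL4/IL13 was 0.46 (adjusted p = 0.0895) without the second untreated array, 0.56 (adjusted p = 0.0535) without the first IL4/IL13 array and 0.54 (adjusted p = 0.0733) without the second.

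Psmb6 had 9.91 and 9.81 under IFN gamma/LPS, 9.25 and 9.19 under IL4/IL13 and 9.90 and 10.04 under LPS/IL4/IL13, against 9.34 and 9.16 in untreated cells. The 4 arrays with LPS all lay above the other 4, with changes of 0.61 ± 0.09 (adjusted p = 0.000116) under IFN gamma/LPS and 0.72 ± 0.09 (adjusted p = 3.33e-05) under LPS/IL4/IL13. Under IL4/IL13 the change was -0.03 ± 0.09 (95% interval -0.23 to 0.17). Psmb7 had 9.41 and 9.59 under IFN gamma/LPS, 9.41 and 9.02 under IL4/IL13 and 9.63 and 9.72 under LPS/IL4/IL13, against 8.84 and 8.95 in untreated cells. All 6 treated arrays lay above the untreated ones, and the change passed the threshold under IFN gamma/LPS (0.61 ± 0.12, adjusted p = 0.00116) and LPS/IL4/IL13 (0.78 ± 0.12, adjusted p = 0.000185) and missed it under IL4/IL13 (0.32 ± 0.12, adjusted p = 0.0876).

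**Figure D3:**
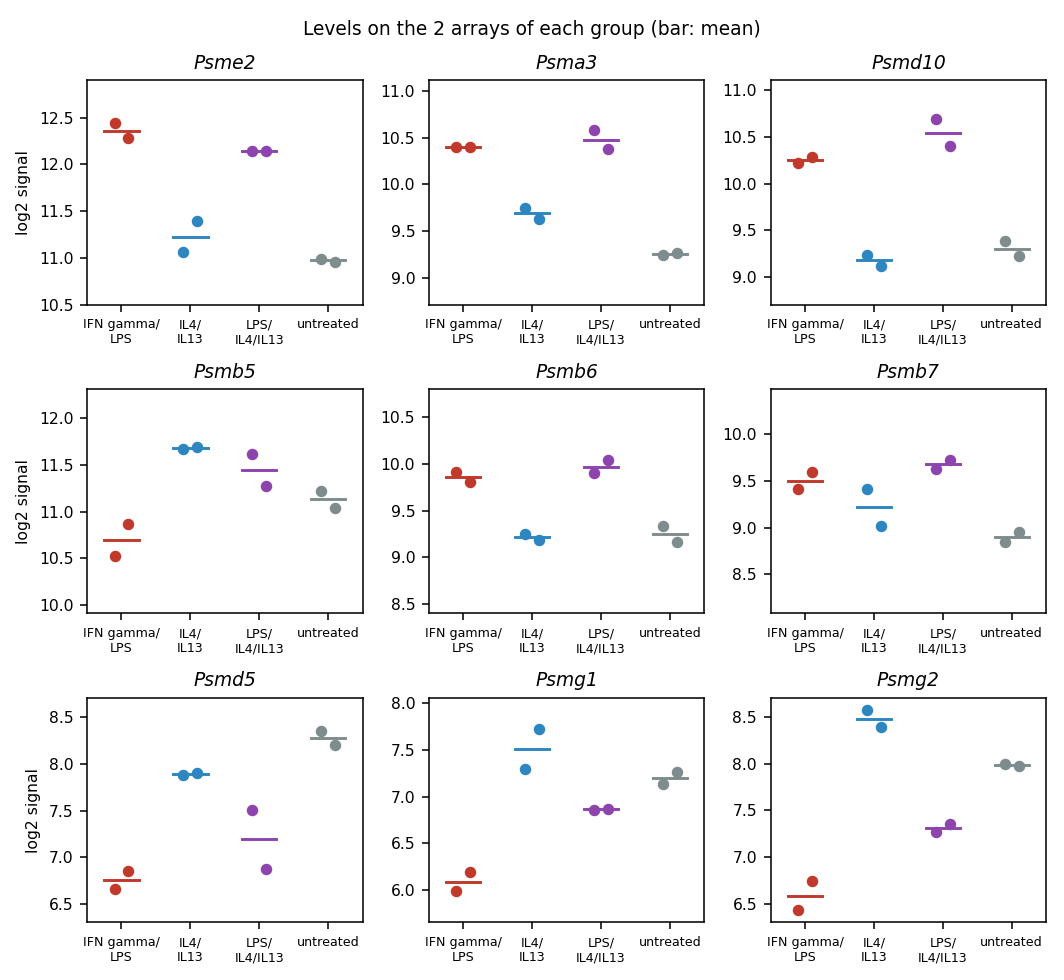
Log2 signal of 9 proteasome genes on the 2 arrays of each group (points, with a bar at their mean), with axes of equal span that do not start at 0. Psmb6 and Psmb7 are high in both groups with LPS, Psmb5 is lowest under IFN gamma/LPS, and Psmd5, Psmg1 and Psmg2 are lowest there too.

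The genes left out by the rule are given for comparison. Psmb8, Psmb9 and Psmb10, the subunits that take the place of Psmb5, Psmb6 and Psmb7, changed by 1.64, 1.78 and 1.09 under IFN gamma/LPS, by 0.72, 0.71 and 1.54 under IL4/IL13 and by 1.89, 1.44 and 1.90 under LPS/IL4/IL13. Psme1 rose by 1.01, 0.34 and 1.15 under the same treatments, and all 12 changes passed the threshold.

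Upstream sequences are shown for the active-site genes Psmb5 and Psmb6, whose 300-base RefSeq promoter windows (GRCm38.p6, 250 bases before the start and 50 after it) both hold the antioxidant response element TGACNNNGC, the core letters of the motif bound by the proteasome gene activator NRF1. The stretches are the 170 bases before the start, 5′ to 3′, at chr14:54617996-54618165 on the minus strand for Psmb5 and chr11:70525187-70525356 on the plus strand for Psmb6, and the capitals mark the motif.
Psmb5: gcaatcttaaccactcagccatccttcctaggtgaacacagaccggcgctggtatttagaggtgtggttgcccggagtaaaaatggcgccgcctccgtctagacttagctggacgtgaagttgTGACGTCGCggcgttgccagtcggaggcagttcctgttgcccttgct
Psmb6: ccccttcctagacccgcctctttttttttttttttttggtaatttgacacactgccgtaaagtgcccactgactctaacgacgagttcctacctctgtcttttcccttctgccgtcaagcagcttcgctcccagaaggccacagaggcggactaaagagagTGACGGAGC
The match begins 47 bases before the start in Psmb5 and 9 bases before it in Psmb6, and these genes changed in opposite directions under IFN gamma/LPS. Of the 38 proteasome genes with a window, 6 hold the motif on either strand (15.8%), as do 12.4% of 32851 windows in the table. The other 4 are Psmc6, Psmd12, Psmd9 and Psme4, none of which rose under IFN gamma/LPS, with changes of -0.21, 0.33, -0.28 and 0.18. With quantile normalization Psmd12 passed there (0.49, adjusted p = 0.00361). Under LPS/IL4/IL13 3 of the 6 rose (Psmb6, Psmd12 and Psme4) and 0 fell. Under IL4/IL13 2 rose (Psmb5 and Psme4) and 0 fell. Of all named genes 20.3% and 7.83% rose under these treatments. Whether the motif bears on these changes was not tested.

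The structural beta subunits, which carry no active site, had 0 of 4 genes called higher in either group with LPS, where 23.6% (with IFN gamma) and 20.3% (with the interleukins) of all named genes rose. Psmb3 fell under IFN gamma/LPS (-0.40 ± 0.08, adjusted p = 0.000931) and rose under IL4/IL13 (0.37 ± 0.08, adjusted p = 0.00524), with 11.61 and 11.70 under IFN gamma/LPS and 12.48 and 12.37 under IL4/IL13, against 12.05 and 12.06 in untreated cells. The rise was lost without the first untreated or the first IL4/IL13 array (highest adjusted p 0.0675). Psmb1 (-0.47 ± 0.11) and Psmb2 (-0.32 ± 0.08) fell under LPS/IL4/IL13, the fall of Psmb2 with an adjusted p of 0.0609 without the second untreated array. Psmb4 had 9.70 and 9.86 under IL4/IL13, against 10.19 and 10.21 in untreated cells, a change of -0.42 ± 0.10 (adjusted p = 0.0137) whose adjusted p was 0.0925 and 0.091 without the first and the second untreated array and 0.117 without the first IL4/IL13 array.

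In the base of the regulatory particle, which unfolds substrates, both large scaffold genes fell under IFN gamma/LPS. The share that fell there was 28.4% of all named genes and 48.9% of those above the median level. Psmd1, the scaffold that anchors the ubiquitin receptor Adrm1, had 9.92 and 9.82 under IFN gamma/LPS and 10.28 and 10.20 under LPS/IL4/IL13, against 10.66 and 10.59 in untreated cells. It changed by -0.76 ± 0.08 (adjusted p = 4.66e-06) under IFN gamma/LPS and -0.39 ± 0.08 (adjusted p = 0.00152) under LPS/IL4/IL13. Psmd2, the other large scaffold, changed by -0.34 ± 0.09 (adjusted p = 0.00767) under IFN gamma/LPS and by -0.14 ± 0.09 under LPS/IL4/IL13, where it did not pass.

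Of the 6 ATPases, which form the unfolding ring, Psmc1 fell under IFN gamma/LPS and the other 5 did not pass there (range -0.21 to 0.18). This fall of 1 in 6 (16.7%) stood beside 28.4% of all named genes and 48.9% of those above the median level. With quantile normalization 3 of the other 5 passed as higher, where 22.1% of all named genes did. They were Psmc2 at 0.46 (adjusted p = 0.00286), Psmc4 at 0.23 (0.0182) and Psmc5 at 0.33 (0.0132), while Psmc5 was at -0.07 in the values as deposited. Psmc1 had 8.51 and 8.55 under IFN gamma/LPS, 8.81 and 9.06 under IL4/IL13 and 9.18 and 9.03 under LPS/IL4/IL13, against 9.24 and 9.21 in untreated cells, and its change under IFN gamma/LPS was -0.70 ± 0.10 (adjusted p = 8.84e-05). Its level under IFN gamma/LPS was below that of every other array. Under IL4/IL13 the probe set used changed by -0.29 ± 0.10 and did not pass, while the gene's other probe set, in a fit of all probe sets, fell by 0.52. Psmc4 rose under IL4/IL13 (0.28 ± 0.08) and LPS/IL4/IL13 (0.40 ± 0.08), and Psmc5 rose under LPS/IL4/IL13 (0.41 ± 0.12). The first of these was lost when any untreated or IL4/IL13 array was left out (highest adjusted p 0.167), and the last without either untreated array or the first LPS/IL4/IL13 array (highest adjusted p 0.0984).

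Psmd4, a ubiquitin receptor, had 8.30 and 8.28 under IFN gamma/LPS, 8.07 and 8.08 under IL4/IL13 and 8.56 and 8.26 under LPS/IL4/IL13, against 8.34 and 8.23 in untreated cells. None of its changes against untreated cells passed the threshold, and their 95% intervals ran from -0.23 to 0.24 under IFN gamma/LPS, from -0.45 to 0.03 under IL4/IL13 and from -0.11 to 0.36 under LPS/IL4/IL13. With quantile normalization it passed as higher under IFN gamma/LPS (0.35, adjusted p = 0.00602) and LPS/IL4/IL13 (0.35, adjusted p = 0.00734).

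In the lid of the regulatory particle, which removes the ubiquitin chain, no gene fell in either group with LPS. Of its 8 genes 3 rose under IFN gamma/LPS and 5 under LPS/IL4/IL13, while 2 rose and 1 fell under IL4/IL13, where the shares of all named genes that rose were 23.6%, 20.3% and 7.83% in the order IFN gamma/LPS, LPS/IL4/IL13, IL4/IL13. Psmd14, the lid's deubiquitinase, had 10.24 and 10.49 under IFN gamma/LPS, 10.20 and 10.04 under IL4/IL13 and 10.95 and 10.45 under LPS/IL4/IL13, against 9.91 and 9.79 in untreated cells. All treated arrays lay above the untreated ones, with changes of 0.52 ± 0.14 (adjusted p = 0.00895), 0.27 ± 0.14 (adjusted p = 0.204, not past the threshold) and 0.85 ± 0.14 (adjusted p = 0.000308). The rise under IFN gamma/LPS was 0.46 (adjusted p = 0.0704) without the second untreated array and 0.39 (adjusted p = 0.0689) without the second IFN gamma/LPS array.

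Psmd7, the partner of Psmd14 in the lid, rose by 0.36 ± 0.09 under IFN gamma/LPS and 0.56 ± 0.09 under LPS/IL4/IL13. Psmd8 rose under all 3 treatments, by 0.29 ± 0.08, 0.25 ± 0.08 and 0.48 ± 0.08 in the same order. Psmd11 (0.37 ± 0.11) and Psmd12 (0.41 ± 0.14) rose under LPS/IL4/IL13 and did not pass under the other treatments (0.18 and 0.33 under IFN gamma/LPS), although with quantile normalization both passed under IFN gamma/LPS (0.34 and 0.49, adjusted p = 0.0056 and 0.00361). Psmd13 rose under IL4/IL13 (0.29 ± 0.09), and Psmd3 passed in none of the 3. Psmd6 had 8.62 and 8.47 under IL4/IL13, against 8.92 and 8.95 in untreated cells, and changed by -0.39 ± 0.11 (adjusted p = 0.0267). Several of these calls were lost when 1 array was left out. Under IFN gamma/LPS those of Psmd7 and Psmd8 were lost without the second untreated array, and that of Psmd7 also without the second IFN gamma/LPS array (highest adjusted p 0.0653 and 0.104). Under IL4/IL13 those of Psmd8, Psmd13 and Psmd6 were lost without the second untreated array or either IL4/IL13 array, and those of Psmd13 and Psmd6 also without the first untreated array (highest adjusted p 0.278, 0.192 and 0.206). Under LPS/IL4/IL13 those of Psmd11 and Psmd12 were lost without the second untreated or the first LPS/IL4/IL13 array, and that of Psmd12 also without the first untreated array or either IL4/IL13 array (highest adjusted p 0.104 and 0.267).

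The assembly chaperones, which build the particle and are not part of it once finished, held the largest falls. Under IFN gamma/LPS 5 of 7 fell and Psmd10 rose, with a median of -0.40, and under LPS/IL4/IL13 3 fell and 2 rose. Of all named genes 28.4% fell under IFN gamma/LPS and 25.4% under LPS/IL4/IL13. Among the named genes above the median level 48.9% and 43.1% fell. With quantile normalization the falls of Psmd9 (-0.04) and Psmg4 (-0.003) under IFN gamma/LPS were lost, as was that of Psmg4 under LPS/IL4/IL13 (-0.13). Psmd5, a chaperone of the ATPase base, had 6.66 and 6.85 under IFN gamma/LPS, 7.88 and 7.90 under IL4/IL13 and 7.51 and 6.88 under LPS/IL4/IL13, against 8.35 and 8.20 in untreated cells. Every treated array lay below the untreated ones, and the LPS/IL4/IL13 arrays differed from each other by 0.63. The change was -1.52 ± 0.17 (adjusted p = 7.66e-06) under IFN gamma/LPS, a level 2.87-fold lower, and -1.08 ± 0.17 (adjusted p = 0.000178) under LPS/IL4/IL13, and it did not pass under IL4/IL13 (-0.39 ± 0.17, adjusted p = 0.131).

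Psmg1 and Psmg2 encode the partners of the heterodimer on which the alpha ring is built. Psmg2 had 6.43 and 6.74 under IFN gamma/LPS, 8.57 and 8.39 under IL4/IL13 and 7.27 and 7.35 under LPS/IL4/IL13, against 7.99 and 7.97 in untreated cells. No group overlapped another: IFN gamma/LPS was lowest, then LPS/IL4/IL13, then untreated cells, and IL4/IL13 was highest. The changes of Psmg2 were -1.40 ± 0.12 (adjusted p = 7.4e-07), 0.50 ± 0.12 (adjusted p = 0.0109) and -0.67 ± 0.12 (adjusted p = 0.000518) in the order IFN gamma/LPS, IL4/IL13, LPS/IL4/IL13. The rise under IL4/IL13 had an adjusted p of 0.0784 and 0.0774 without the first and the second untreated array, and of 0.0957 without the first IL4/IL13 array. With quantile normalization the change under LPS/IL4/IL13 was -0.36.

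Psmg1 had 5.99 and 6.19 under IFN gamma/LPS, 7.30 and 7.72 under IL4/IL13 and 6.86 and 6.87 under LPS/IL4/IL13, against 7.14 and 7.26 in untreated cells. Its groups lay in the same order as those of Psmg2, without overlap. The fall under IFN gamma/LPS passed (-1.11 ± 0.14, adjusted p = 2.19e-05), and the changes under IL4/IL13 (0.31 ± 0.14) and LPS/IL4/IL13 (-0.34 ± 0.14) did not. Of the second heterodimer that guides the alpha ring, Psmg4 fell under IFN gamma/LPS (-0.40 ± 0.10) and LPS/IL4/IL13 (-0.44 ± 0.10). The signal of Psmg3 was dim, from 5.73 to 6.21 over the 8 arrays, beside array medians of 6.12 to 6.20. Psmg3 rose by 0.39 ± 0.14 under LPS/IL4/IL13, a call lost when any untreated or LPS/IL4/IL13 array was left out (highest adjusted p 0.162).

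Psmd10, which encodes gankyrin, another chaperone of the ATPase base, was the chaperone gene that rose in both groups with LPS. It had 10.22 and 10.28 under IFN gamma/LPS, 9.24 and 9.12 under IL4/IL13 and 10.69 and 10.40 under LPS/IL4/IL13, against 9.38 and 9.22 in untreated cells. The 4 arrays with LPS lay above the other 4, by 0.95 ± 0.10 (adjusted p = 7.02e-06) and 1.25 ± 0.10 (adjusted p = 7.48e-07) relative to untreated cells, the change under LPS/IL4/IL13 being 2.37-fold. Psmd9, the remaining base chaperone, fell under IFN gamma/LPS (-0.28 ± 0.10, adjusted p = 0.0322), a call lost when any IFN gamma/LPS or untreated array was left out (highest adjusted p 0.146).

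**Figure D4:**
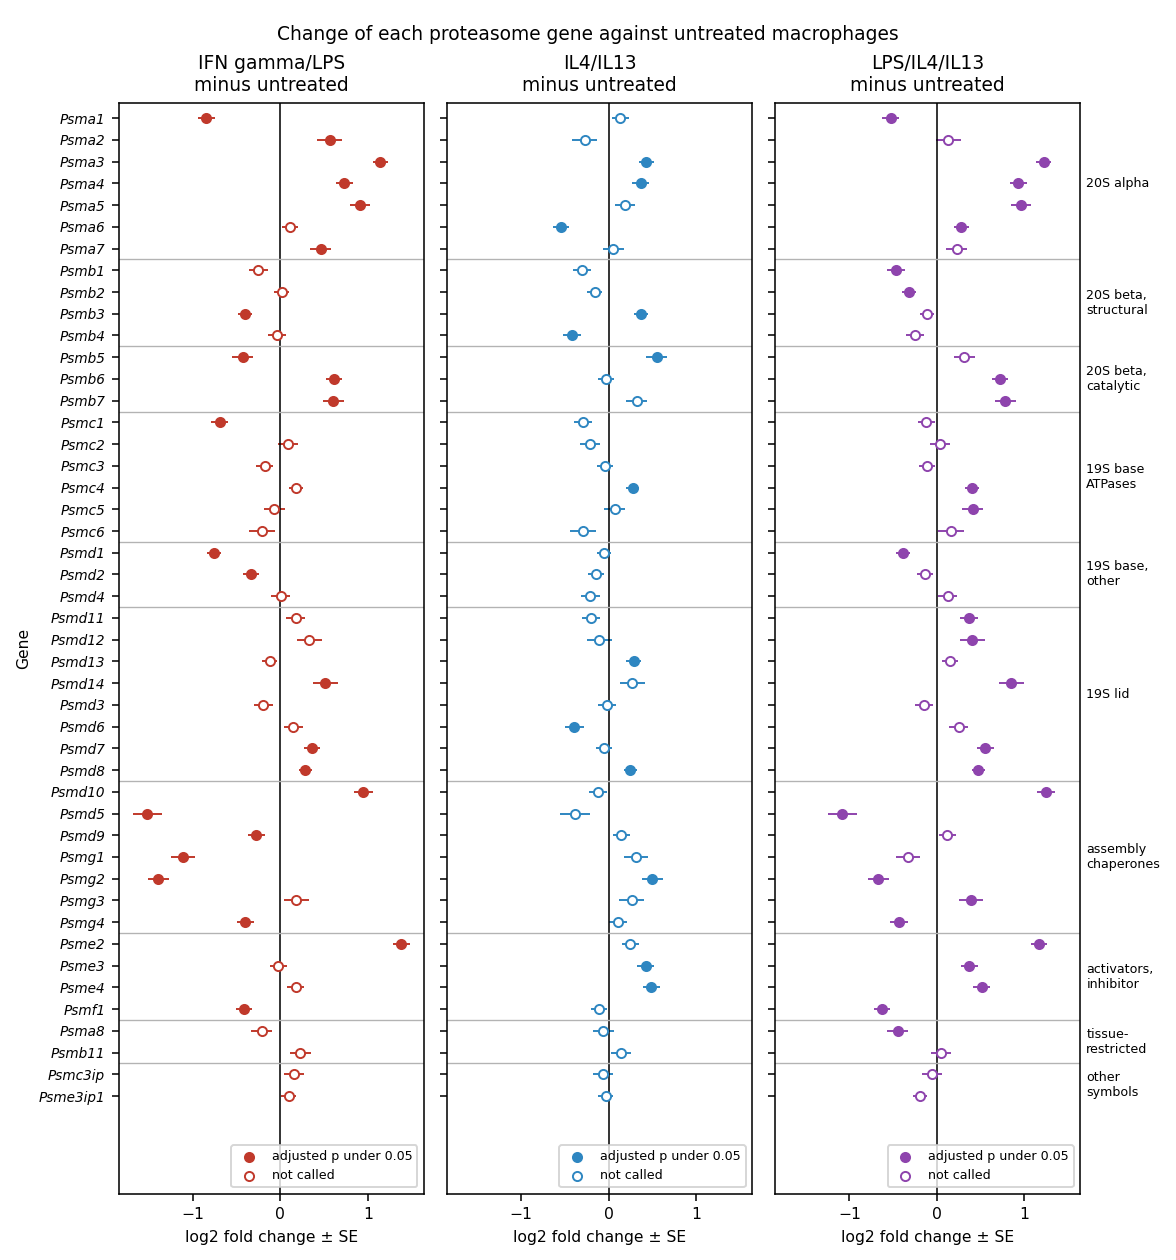
Log2 fold change ± SE against untreated cells of each of the 46 genes (rows, grouped by role) in a panel for each treatment, with filled points for a limma adjusted p under 0.05. Psmd5, Psmg2 and Psmg1 stand farthest to the left under IFN gamma/LPS (-1.52, -1.40 and -1.11), Psme2, Psma3 and Psmd10 farthest to the right in both groups with LPS, and no point under IL4/IL13 passes 0.55 in size.

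Psme2 had the largest rise of all 46 genes under IFN gamma/LPS. It encodes the beta subunit of the interferon-inducible activator cap, in which it pairs with Psme1. Its levels were 12.44 and 12.28 under IFN gamma/LPS, 11.06 and 11.39 under IL4/IL13 and 12.14 on both arrays under LPS/IL4/IL13, against 10.99 and 10.96 in untreated cells. All 4 arrays with LPS lay above the other 4. The change was 1.39 ± 0.09 (adjusted p = 9.61e-08), 2.61-fold, under IFN gamma/LPS, 0.25 ± 0.09 (adjusted p = 0.0856, not past the threshold) under IL4/IL13 and 1.17 ± 0.09 (adjusted p = 5.78e-07) under LPS/IL4/IL13. A near-identical copy, Psme2b, shares a further probe set with Psme2, and whether its transcripts add to the probe set used here was not tested.

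Psme3 and Psme4, activators outside the interferon-inducible cap, rose in both groups that received the interleukins. Psme3, the nuclear activator, had 9.99 and 10.15 under IFN gamma/LPS, 10.54 and 10.50 under IL4/IL13 and 10.59 and 10.34 under LPS/IL4/IL13, against 10.16 and 10.03 in untreated cells. It rose by 0.43 ± 0.10 (adjusted p = 0.0081) under IL4/IL13 and 0.37 ± 0.10 (adjusted p = 0.00737) under LPS/IL4/IL13. The change under IFN gamma/LPS was -0.03 ± 0.10 (95% interval -0.24 to 0.19). Both rises were lost without the second untreated array (adjusted p = 0.0934 and 0.0798), and the first also without the first or the second IL4/IL13 array (0.0645 and 0.0543).

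Psme4, a large activator of acetylated histone turnover, had 9.87 and 9.80 under IFN gamma/LPS, 10.19 and 10.11 under IL4/IL13 and 10.31 and 10.03 under LPS/IL4/IL13, against 9.68 and 9.64 in untreated cells. All treated arrays lay above the untreated ones, and the change passed under IL4/IL13 (0.49 ± 0.10, adjusted p = 0.00304) and LPS/IL4/IL13 (0.51 ± 0.10, adjusted p = 0.00075) and missed under IFN gamma/LPS (0.18 ± 0.10, adjusted p = 0.141). Psmf1, which encodes the proteasome-binding protein first described as an inhibitor, had 8.85 and 8.97 under IFN gamma/LPS, 9.22 on both arrays under IL4/IL13 and 8.79 and 8.61 under LPS/IL4/IL13, against 9.36 and 9.30 in untreated cells. The 4 arrays with LPS lay below the other 4, with changes of -0.42 ± 0.09 (adjusted p = 0.00218) and -0.63 ± 0.09 (adjusted p = 0.000109).

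The core genes of other tissues and the symbols outside the complex made up the rest. Psma8 ran from 4.96 to 5.50 and Psmb11 from 5.65 to 6.02, below the median of every array, and Psmc3ip from 5.54 to 5.88, also below it. Psma8 fell under LPS/IL4/IL13 (-0.45 ± 0.12), with an adjusted p of 0.0789 without the second untreated array, and neither Psmb11, Psmc3ip nor Psme3ip1 passed against untreated cells.

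The groups with LPS were also compared directly, and they differ both in IFN gamma and in the interleukins. LPS/IL4/IL13 was above IFN gamma/LPS in 12 of the 46 genes (26.1%), against a background of 12.1%. It was below in 3 (6.52%), against a background of 7.62%. Among the named genes above the median level 22.8% were higher and 12.9% lower. The median difference of the 46 was 0.18, against 0.00 over all named genes and 0.065 over those above the median level. With quantile normalization 11 genes were higher (23.9%, against 10.9% of all named genes) and 5 lower (10.9%, against 9.28%). The widest differences were in Psmg1 (0.78 ± 0.14, adjusted p = 0.00146), Psmb5 (0.75 ± 0.12, adjusted p = 0.000877), Psmg2 (0.73 ± 0.12, adjusted p = 0.00081) and Psmc1 (0.58 ± 0.10, adjusted p = 0.00136), all higher with the interleukins and with no overlap of the arrays. Each of these kept its call in the fits that left out 1 array. Psmd1 (0.37 ± 0.08), Psme3 (0.40 ± 0.10) and Psme4 (0.34 ± 0.10) were higher too, though the call of Psme3 was lost without the first IFN gamma/LPS or the first LPS/IL4/IL13 array (highest adjusted p 0.103). That of Psme4 was lost without either untreated array, either IFN gamma/LPS array or the first LPS/IL4/IL13 array (highest adjusted p 0.143).

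Lower under LPS/IL4/IL13 than under IFN gamma/LPS were Psma2, Psmb2 and Psme3ip1, which encodes a partner of Psme3. Psma2 had 9.20 and 9.14 under LPS/IL4/IL13, against 9.85 and 9.36 under IFN gamma/LPS, a difference of -0.44 ± 0.14 (adjusted p = 0.0478). Psmb2 had 11.16 and 11.43, against 11.68 and 11.58 (-0.34 ± 0.08, adjusted p = 0.0129), and Psme3ip1 had 9.10 and 9.24, against 9.47 and 9.45 (-0.29 ± 0.08, adjusted p = 0.0281). None of the 3 kept its call in every fit that left out 1 array: without the first IFN gamma/LPS array the adjusted p values were 0.428, 0.0958 and 0.136. That fit left 5 genes higher and 0 lower, and without the first LPS/IL4/IL13 array 6 were higher. Leaving out either untreated array left 1 lower.

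**Figure D5:**
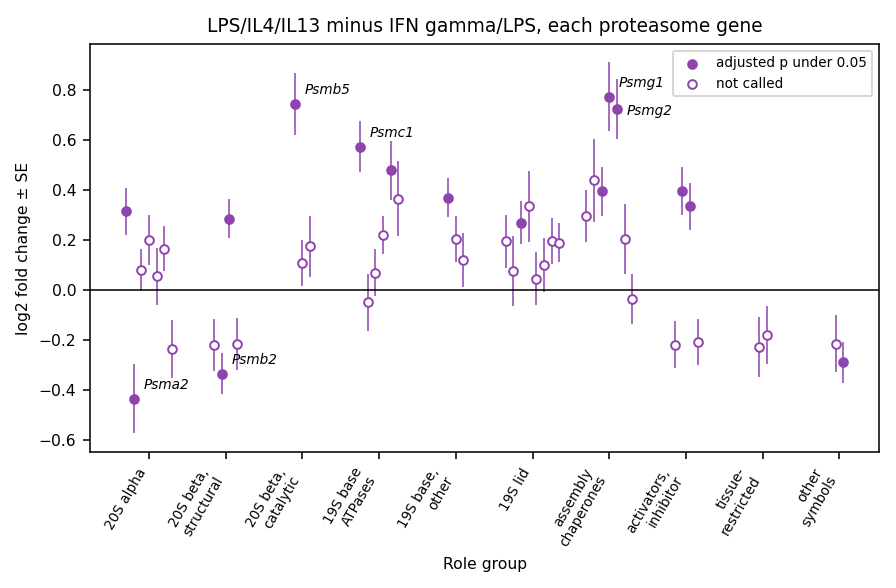
Log2 fold change ± SE of LPS/IL4/IL13 over IFN gamma/LPS for each of the 46 genes, by role group, with filled points for a limma adjusted p under 0.05. Psmg1, Psmb5, Psmg2 and Psmc1 lie highest, between 0.58 and 0.78, and no gene lies lower than Psma2 at -0.44.

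Adding LPS to the interleukins brought a mixed change. LPS/IL4/IL13 was above IL4/IL13 in 18 genes (39.1%), against a background of 14.1%. It was below in 9 (19.6%), against a background of 22.6%, with a median of 0.13 beside -0.02 over all named genes. Among the named genes above the median level 24.3% were higher and 38.8% lower. The lid had 6 of 8 genes higher and none lower, and the alpha ring had 5 of 7 higher and 1 lower. Without the second IL4/IL13 array 3 lid genes and 4 alpha ring genes were higher, with the calls of Psmd8, Psmd12, Psmd14 and Psma2 lost, and that of Psma2 was lost in 5 of the 8 fits. With quantile normalization Psmd8 stood at -0.04 and did not pass. The largest rises were in Psmd10 (1.37 ± 0.10), Psme2 (0.92 ± 0.09), Psma6 (0.83 ± 0.09) and Psma3 (0.79 ± 0.09), and the largest falls in Psmg2 (-1.17 ± 0.12), Psmd5 (-0.70 ± 0.17), Psma1 (-0.67 ± 0.09) and Psmg1 (-0.65 ± 0.14), with adjusted p values up to 0.00521. The arrays of these groups did not overlap in any of the 8 genes. The change of Psmd5 ran from -1.01 to -0.38 over the fits that left out 1 array. Without the second IL4/IL13 array the number higher over all 46 genes was 10.

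IFN gamma/LPS was above IL4/IL13 in 14 genes (30.4%), against a background of 15.5%. It was below in 14 (30.4%), against a background of 26.1%. Among the named genes above the median level 24.3% were higher and 45.3% lower. All 7 alpha ring genes differed, 6 higher and Psma1 lower, while 5 of 7 chaperones were lower. The calls of Psma4 and Psma7 were lost without the second IL4/IL13 or the second IFN gamma/LPS array, and that of Psma7 also without the first IL4/IL13 array (highest adjusted p 0.0905 and 0.0659). With quantile normalization the chaperones Psmd9 and Psmg4 were lost (adjusted p = 0.0651 and 0.0834). The extremes were Psme2 (1.14 ± 0.09) and Psmg2 (-1.90 ± 0.12, a 3.72-fold lower level). Psmb5 differed by -0.98 ± 0.12 (adjusted p = 2.71e-05).

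The interferon response element GAAANNGAAA was also searched on both strands of the promoter windows, since interferon was part of 1 treatment. It stood in 4 of the 38 windows (10.5%: Psmb3, Psmd4, Psmd9 and Psmg4) and in 3.44% of all windows. Psmb3, Psmd9 and Psmg4 fell under IFN gamma/LPS, with changes of -0.40, -0.28 and -0.40, and Psmd4 changed by 0.01. Of all named genes 28.4% fell there, and of those above the median level 48.9%. With quantile normalization the falls of Psmd9 (-0.04) and Psmg4 (-0.003) were lost, and Psmd4 passed as higher (0.35, adjusted p = 0.00602). Whether the motif bears on these changes was not tested. Windows are shown for 3 of them, as the 170 bases before the start, at chr11:97703264-97703433 on the plus strand for Psmb3, chr5:123228020-123228189 on the plus strand for Psmd9 and chr3:95042615-95042784 on the minus strand for Psmd4. Capitals mark this motif in either orientation, and also the antioxidant response element in Psmd9 and the letters CCAAT, or ATTGG on the other strand, in Psmb3 and Psmd4.
Psmb3: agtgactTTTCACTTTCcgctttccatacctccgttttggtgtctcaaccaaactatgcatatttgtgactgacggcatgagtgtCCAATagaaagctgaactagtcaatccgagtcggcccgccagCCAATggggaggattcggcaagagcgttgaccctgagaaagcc
Psmd9: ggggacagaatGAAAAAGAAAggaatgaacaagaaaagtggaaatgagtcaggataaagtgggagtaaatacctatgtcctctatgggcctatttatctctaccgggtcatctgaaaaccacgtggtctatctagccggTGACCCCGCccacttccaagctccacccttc
Psmd4: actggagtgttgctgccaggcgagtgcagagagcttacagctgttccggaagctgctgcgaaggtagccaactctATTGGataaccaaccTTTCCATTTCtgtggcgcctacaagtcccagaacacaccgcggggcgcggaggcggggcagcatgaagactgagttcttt
The interferon motif begins 163 bases before the start in Psmb3, 159 in Psmd9 and 80 in Psmd4. In Psmg4 it begins at base 16 after the start.

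The letters CCAAT, the core of the promoter box bound by the factor NF-Y, stood in 14 of the 38 windows (36.8%) and in 37.4% of all windows. Of these 14 genes 5 rose and 3 fell (Psma1, Psmb3 and Psmc1) under IFN gamma/LPS, where 23.6% of all named genes rose and 28.4% fell. The windows of Psma3 and Psmd10, which rose, hold 3 matches each, as does that of Psmd4 above, which did not pass. The 170 bases before the start of Psma3 and Psmd10, at chr12:70974453-70974622 on the plus strand for Psma3 and chrX:140956712-140956881 on the minus strand for Psmd10, follow with the matches in capitals.
Psma3: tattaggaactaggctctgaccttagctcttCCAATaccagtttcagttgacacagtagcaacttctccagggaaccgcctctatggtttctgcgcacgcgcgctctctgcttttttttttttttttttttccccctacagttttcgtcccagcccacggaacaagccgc
Psmd10: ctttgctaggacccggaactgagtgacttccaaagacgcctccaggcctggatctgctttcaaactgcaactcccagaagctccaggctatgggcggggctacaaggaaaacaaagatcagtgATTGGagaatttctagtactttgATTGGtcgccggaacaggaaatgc
Of these matches Psma3 has 1 before its start and 2 after it, and Psmd10 has 1 farther upstream than the stretch shown.

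Genes that act with the proteasome but carry other names were also read. Of 10 such proteasome proteins 3 rose and 3 fell under IFN gamma/LPS (30% each), near the 23.6% and 28.4% of all named genes. Pomp, which matures the core, rose under all 3 treatments (0.47 ± 0.10, 0.41 ± 0.10 and 0.77 ± 0.10, in the same order of treatments). The deubiquitinase genes went apart: Uchl5 rose under IFN gamma/LPS (1.03 ± 0.15) while Usp14 fell (-1.19 ± 0.12), as did the proteasome-bound ligase gene Ube3c (-1.09 ± 0.11). Zfand5, a proteasome activator, rose under LPS/IL4/IL13 (1.32 ± 0.09, adjusted p = 1.14e-07) and did not pass under IFN gamma/LPS (0.13 ± 0.09).

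Of 11 genes listed around NRF1, which controls proteasome transcription, 4 rose and 5 fell under IFN gamma/LPS. These are shares of 36.4% and 45.5%, against 23.6% and 28.4% of all named genes and 26.0% and 48.9% of the bright ones. The list also holds genes of the related NRF2 system, among them the risers Bach1 (0.56 ± 0.07) and Keap1 (0.57 ± 0.11). Nfe2l1, the gene of NRF1 itself, changed by -0.31 ± 0.08 under IFN gamma/LPS (adjusted p = 0.00801), and Ngly1, whose enzyme activates NRF1, by -1.20 ± 0.13. Maff and Mafk, small Maf partners, rose by 3.16 ± 0.09 and 2.08 ± 0.11 under IFN gamma/LPS and by 1.92 ± 0.09 and 1.16 ± 0.11 under LPS/IL4/IL13. Of 17 genes of ubiquitin shuttles and of the p97 segregase, which bring substrates to the proteasome, none rose and 12 fell under IFN gamma/LPS (70.6%), with a median of -0.44, against 28.4% of all named genes and 48.9% of the bright ones that fell. Under LPS/IL4/IL13 3 rose and 7 fell (17.6% and 41.2%), against 20.3% and 25.4% of all named genes. Of the bright ones 25.7% rose and 43.1% fell there. The largest falls under IFN gamma/LPS were in Ubqln2 (-2.06 ± 0.11), Nbr1 (-1.78 ± 0.09), Faf1 (-1.32 ± 0.13) and Ubxn7 (-1.05 ± 0.10), while Rad23b (0.10 ± 0.08) and Ubqln1 (-0.01 ± 0.09) did not pass. Vcp, the p97 gene, fell too (-0.64 ± 0.09) and is in both lists. Of 9 genes listed for ubiquitin, the ubiquitin-like protein ISG15 and their enzymes, 3 were measured by a probe set of their own. Uba6 (0.87 ± 0.11), Uba7 (1.28 ± 0.09) and Ube2l6 (2.12 ± 0.07) all rose under IFN gamma/LPS, as did 23.6% of all named genes.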

How the data were processed

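Per the labels, total RNA of each of the 8 samples was hybridised to an Affymetrix MoGene-1_0-st-v1 array. The deposited table holds 1 log2 signal per probe set and array, a scale read from the values (1.46 to 13.71), although the labels name the column a mas5 signal. How background was corrected and arrays normalized is not given in the sources used, and no further normalization was applied. Of 35556 probe sets, 21789 had 1 symbol in the platform annotation, 1621 had several and 12146 had none. Only probe sets with 1 symbol were used, without a filter on dim ones, and the brightest stood for a gene. All 46 genes matched RefSeq by Entrez identifier. Sample labels gave the groups.

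limma 3.58.1 (R 4.3.3) fitted 1 mean per group (lmFit, then eBayes with a mean-variance trend, 4 residual degrees of freedom), and 6 contrasts were tested with Benjamini-Hochberg adjustment over 19938 genes. The code was tested on simulated data. Motifs were searched in the RefSeq promoter windows (GRCm38.p6). Figures were drawn with matplotlib 3.10.9.

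Values on every array were given for the active-site genes, the activators and Psmf1, Psmd4 and Psmd14, and for up to 4 called genes with the highest and 4 with the lowest change in each comparison with untreated cells and of LPS/IL4/IL13 with another treatment. Psmb3 and Psmd1 were added after their values were seen. Of other pathway lists, counts, up to 4 called genes and up to 2 that did not pass were given, with a few further genes added after their values were seen. The genes and lists were chosen with earlier results of these data known. Alternatives tried were median centring, quantile normalization, leaving out dim genes, the mean over probe sets, no variance trend, only the arrays compared, a 1.5-fold minimum, a block for the replicate number, all probe sets in the fit, and leaving out each array.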

Additional observations from a re-analysis of the deposited data

Results flagged for a closer look

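A probe set annotated to both Psme2b and Psme2, which the gene count leaves out because it has 2 symbols, was higher than in untreated cells by 1.670 on the log2 scale under IFN gamma/LPS and by 1.290 under LPS/IL4/IL13. It is listed because it lies outside the measurements reported above. Its change under IL4/IL13 was -0.035.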

How the results depend on the processing

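The counts of proteasome genes called in each comparison depended on the size asked for and, in part, on the variance model. With at least 1.5-fold required, the counts higher and lower were 7 and 6 (IFN gamma/LPS against untreated), 0 and 0 (IL4/IL13 against untreated), 8 and 3 (LPS/IL4/IL13 against untreated), 3 and 0 (LPS/IL4/IL13 against IFN gamma/LPS), 8 and 4 (LPS/IL4/IL13 against IL4/IL13) and 7 and 7 (IFN gamma/LPS against IL4/IL13). Of all 19938 named genes 5854, 1581, 5067, 1768, 4424 and 5431 were called at that size in either direction, in the same order of comparisons. IL4/IL13 against untreated cells gave 6 higher with centred arrays, with no variance trend or with all probe sets in the fit (an alternative chosen after seeing the data). There 5 were lower with centred arrays or a filter on dim genes, 9 with only the 4 arrays compared and 1 with all probe sets. LPS/IL4/IL13 against IFN gamma/LPS gave 5 higher with only the 4 arrays compared, and 5 lower with quantile normalization but 0 with no variance trend, with only the 4 arrays compared or with all probe sets. Quantile normalization gave 14 lower for LPS/IL4/IL13 against IL4/IL13 (30.4%, against 21.8% of all named genes). The causes were not tested. Centring and quantile normalization moved the median of all named genes by at most 0.074.

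Leaving out 1 array gave 8 to 15 higher and 10 to 13 lower for IFN gamma/LPS, 3 to 11 and 1 to 7 for IL4/IL13, and 12 to 21 and 7 to 12 for LPS/IL4/IL13, all against untreated cells. It gave 5 to 17 and 0 to 3 for LPS/IL4/IL13 against IFN gamma/LPS, 10 to 19 and 7 to 10 for LPS/IL4/IL13 against IL4/IL13, and 10 to 17 and 12 to 15 for IFN gamma/LPS against IL4/IL13. Where it left 1 array in a group, that array was assumed to vary like the other groups. Of 1020 alternative values of the 60 named changes, 932 kept their side of the threshold, 67 lost it, 21 passed it newly and 0 reversed. Same-numbered arrays share only a number (correlations of their deviations -0.358 to 0.217), and with the replicate number as a block 9 genes were higher and 3 lower for IL4/IL13 against untreated cells. The block moved no count by over 1.5 times. No detection call was used. How far dim signals such as those of Psma8 and Psmg3, or of Psmg1 under IFN gamma/LPS, lie above background was therefore not tested.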
